A study of Caenorhabditis elegans with 12 samples.

Results

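The effects of 2 mutations on the transcriptome of Caenorhabditis elegans were compared with their combined effect in the double mutant. Each gene was described by its interaction, the effect of lonp-1(cmh24) in worms that carried mrps-38(P210L) minus its effect in worms with the wildtype allele of mrps-38, on the log2 scale of the normalized count + 1. A value of 0 means that the level of the double mutant equals the sum of the 2 single effects. All 12 libraries of the series entered the comparison, and 15717 of the 19568 genes in the table, those whose normalized count averaged 10 or more, were tested.

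The libraries were made from total RNA of whole worms, extracted with Trizol at the L4 stage, the last larval stage, after growth on HT115 E. coli, and 3 biological replicates each were sequenced as stranded paired-end reads. The 4 genotypes were wildtype (named N2 in the library names, the standard laboratory strain), worms with lonp-1(cmh24), worms with mrps-38(P210L), and a strain with both mutations. mrps-38(P210L) is named for a proline to leucine change, and cmh24 is an allele whose lesion the labels do not describe. Each mutation was thus represented by 1 allele.

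The product of lonp-1 is LON, an ATP-dependent protease inside mitochondria, which degrades misfolded and oxidized proteins and, in other organisms, factors that maintain and transcribe mitochondrial DNA. The product of mrps-38 belongs to the small subunit of the ribosome of mitochondria, which translates the mRNAs of the mitochondrial genome into core subunits of the respiratory chain. Disturbed mitochondrial proteostasis in worms induces a nuclear programme through the transcription factor ATFS-1.

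The libraries held 22614493 to 22890539 reads in genes. Reads of genes that mark late maturation differed between genotypes. The 6 vitellogenins, yolk proteins made in the adult intestine, took (mean ± SD, n = 3) 2.45% ± 0.00872 of the reads of the double mutant, 0.949% ± 0.172 of those of lonp-1(cmh24), 0.104% ± 0.00866 of those of wildtype and 0.00171% ± 0.00184 of those of mrps-38(P210L). Major sperm proteins took 0.744% ± 0.0167, 0.161% ± 0.00704, 0.117% ± 0.00583 and 0.00721% ± 0.00826 in the same order. Within mrps-38(P210L), replicate 3 differed from the other 2 replicates, with a vitellogenin share of 0.00383% against 0.000624% and 0.000681%, and a major sperm protein share of 0.0168% against 0.00245% and 0.00242%. These shares move with many of the results below, and their part in each of them was not tested. Replicates of other genotypes were further apart by the chi-square per degree of freedom between 2 libraries, a measure of disagreement beyond sampling noise. It was 28.95 for wildtype replicates 1 and 2. For lonp-1(cmh24) replicate 1 it was 26.71 and 17.09 against replicates 2 and 3, which were at 2.984 with each other. Within mrps-38(P210L) the highest was 7.98. In RNA of whole worms, fewer cells of a type and less RNA per cell cannot be told apart. The lonp-1 transcript, the targeted gene (lonp-1, WBGene00016391), was read in all genotypes, at 1663, 1759 and 1643 for wildtype, 1606, 1665 and 1569 for mrps-38(P210L), 1341, 1333 and 1344 for lonp-1(cmh24) and 1488, 1412 and 1412 for the double mutant. Its interaction of 0.17 ± 0.07 had an adjusted p of 0.0409, which rose to 0.621 with edgeR and was above 0.05 with TMM factors, DESeq2, a replicate block or no filter and without any 1 of 8 of the 12 libraries. The mrps-38 transcript was not analysed here.

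The double mutant departed from the sum of the single effects in most genes tested. With limma and a Benjamini-Hochberg adjusted p under 0.05, 10377 genes were called (66% of those tested), 5413 above the sum (34.4%) and 4964 below it (31.6%). At least a 2-fold departure was reached by 3001 of the called genes above (19.1%) and by 2329 below (14.8%). The middle of the distribution was centred, with a median of 0.00 and quartiles of -0.61 and 0.68. Its tails were not alike, with a 5% quantile of -1.82 against a 95% quantile of 5.43, and the extremes were -8.88 and 10.24. On the unlogged scale, where single effects add as counts, 98.8% of the genes called above the sum and 98.6% of those called below it departed to the same side.

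The lonp-1 mutation changed more genes in worms with mrps-38(P210L) than in worms without it. It changed 9848 genes in the wildtype background (62.7%) and 13141 in the mrps-38(P210L) background (83.6%), of which 6857 rose (43.6%) and 6284 fell (40%). The median absolute effect was 0.45 and 0.87. The SD of the effect across genes was 1.13 and 2.14. These 2 comparisons share no library. Across the 15717 genes their effects had a Pearson r of 0.384 and a Spearman rho of 0.459, which describes these libraries since genes are not independent replicates. The mrps-38 mutation changed 10418 genes in the wildtype background (66.3%) and 8538 in the lonp-1(cmh24) background (54.3%). Of these, 5461 (34.7%) and 3851 (24.5%) fell. The double mutant differed from wildtype in 11704 genes (74.5%).

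Sorted by the effect of lonp-1(cmh24), the called genes fell into 6 patterns. The largest group, 3931 genes, passed the test for a lonp-1 effect only in the mrps-38(P210L) background, 2362 of them above the sum and 1569 below. In 3411 genes the effect had the same direction in both backgrounds and was larger with mrps-38(P210L), and in 772 it was smaller. In 1256 genes the effect was called in opposite directions, 941 passed only in the wildtype background, and 66 passed in neither. The double mutant lay above all 3 other groups in 2440 of the called genes and below all 3 in 2106, while 2336 did not pass the test against wildtype. These counts were made among the 10377 called genes only. Over all 15717 tested genes, 11704 (74.5%) passed the test against wildtype. Not passing this test does not show a return to the wildtype level.

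**Figure D1:**
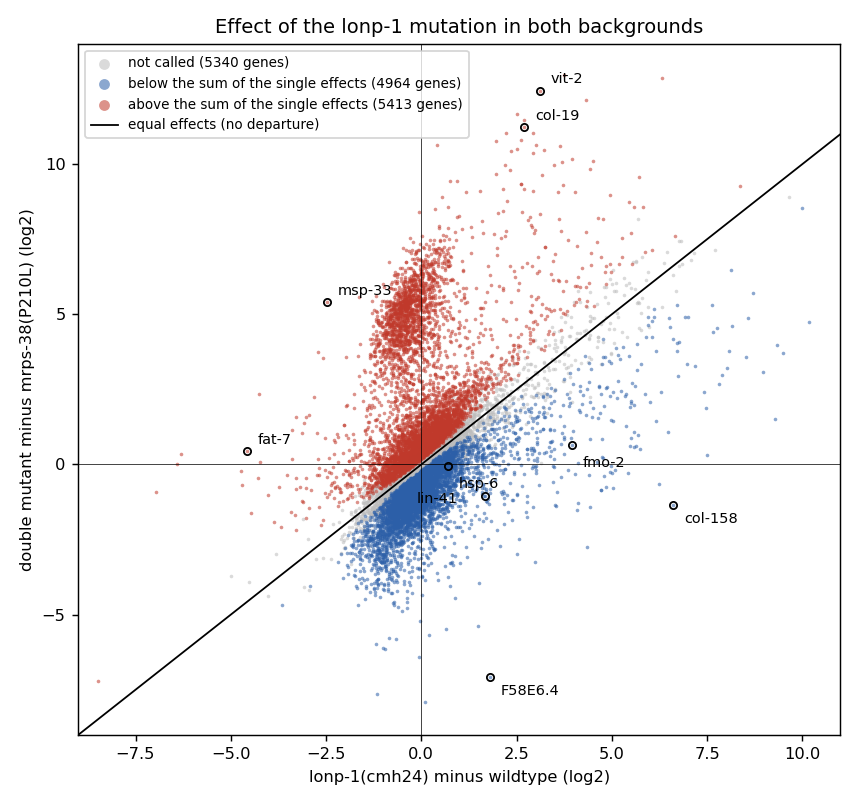
Effect of the lonp-1 mutation in the wildtype background (x axis, log2) and in the mrps-38(P210L) background (y axis, log2), 1 point per tested gene, coloured by whether the gene was called above (5413) or below (4964) the sum of the single effects. Genes on the diagonal have equal effects in both backgrounds, and a cloud of red points near 0 on the x axis reaches beyond 5 on the y axis. Circles mark the genes with a label.

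The direction of departure followed how the single mutations acted, a description only, since the single effects and the interaction share libraries. Among 1468 genes that were higher in each single mutant than in wildtype, 1152 (78.5%) lay below the sum and 12 above it, with a median interaction of -0.83. Among 1367 genes lower in each single mutant, 954 (69.8%) lay above the sum, with a median of 0.78. Among 1721 genes higher in lonp-1(cmh24) and lower in mrps-38(P210L), 77.5% lay above the sum, and among 1902 genes lower in lonp-1(cmh24) and higher in mrps-38(P210L), 64.5% lay below it. In these classes the departure was mostly opposite in sign to the single effect of mrps-38(P210L), for either sign of the lonp-1 effect. The most extreme class was that of 2373 genes that were lower in mrps-38(P210L) and not called in lonp-1(cmh24), in which 2127 (89.6%) lay above the sum and the median was 4.12.

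Genes of yolk and of the male and female germline had the highest median interactions of all lists. All 6 tested vitellogenins were called above the sum, with a median of 8.99. All 31 tested major sperm proteins, which form the cytoskeleton of nematode sperm, were called above it (median 6.75), as were 65 of 68 spermatogenesis genes (median 5.57, the other 3 not called). All 47 genes of germline proliferation and meiosis passed in the same direction at a lower size, with a median of 1.27. Of 41 oocyte and eggshell genes, 30 were called above the sum and 1 below, mbk-2 (-0.46 ± 0.06), a kinase of the oocyte-to-embryo transition that was named after the values were seen. Copies of the vit, msp, col and his families share sequence, so the split of reads between single members is uncertain.

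Among yolk genes, vit-2 had normalized counts of 5894, 7682 and 7236 for wildtype, 10.5, 9.43 and 236 for mrps-38(P210L), 51132, 65274 and 63528 for lonp-1(cmh24) and 172246, 169896 and 169784 for the double mutant. The mrps-38(P210L) libraries were lowest and the double mutant highest with no overlap between any of the groups, against a level of 263 at the sum of the single effects. The interaction was 9.34 ± 1.46 (adjusted p = 0.000502), and 10.81 without replicate 3 of mrps-38(P210L). vit-5 and vit-6 had interactions of 9.22 ± 1.28 and 8.80 ± 1.26, and 10.51 and 10.07 without that library.

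Of the sperm genes, msp-33 (WBGene00003431, chromosome II, 4892311 to 4892694) was read at 1090.0, 1154 and 1069 for wildtype, 12.8, 11.8 and 55.7 for mrps-38(P210L), 185, 232 and 182 for lonp-1(cmh24) and 894, 899 and 956 for the double mutant. Each single mutation lowered the gene, mrps-38(P210L) more, and the double mutant lay below wildtype and above both single mutants with no overlap. The sum of the single effects would give a count of 2.9. Its interaction was 7.88 ± 0.67 (adjusted p = 6.46e-06), and the lonp-1 effect went from -2.47 in the wildtype background to 5.41 in the mrps-38(P210L) background. In msp-49 (7.70 ± 0.80) and msp-36 (6.75 ± 0.94) the lonp-1 effect in the wildtype background was not called, at -0.49 and 0.38. The median of this effect over the 31 major sperm proteins was 0.33, so msp-33 was not typical of the family in it. Without replicate 3 of mrps-38(P210L) the interactions of these 3 genes were 8.57, 8.49 and 7.70, and the other sperm genes named here were higher in the same way, at up to 8.29 for spe-11. Sperm proteins outside the family were also lowest in mrps-38(P210L) and, unlike msp-33, highest in the double mutant. Among them were spe-11 (7.26 ± 1.04), which the sperm brings into the embryo, htas-1 (7.23 ± 0.87), a histone H2A of sperm, and ssq-1 (7.01 ± 0.89). alg-3 (5.49 ± 0.71) and alg-4 (5.64 ± 0.62), argonautes of a small RNA pathway in spermatogenesis, had the same lowest and highest group.

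perm-2 (6.37 ± 1.32) and perm-4 (6.45 ± 1.197), proteins of the permeability barrier of the eggshell, fell in mrps-38(P210L) by 4.91 and 5.13 on the log2 scale and were above the sum, at 7.66 and 7.62 without replicate 3 of mrps-38(P210L). cpg-2, a chondroitin proteoglycan of the eggshell, had normalized counts of 1374, 1731 and 1569 for wildtype, 382, 423 and 523 for mrps-38(P210L), 14501, 19345 and 18103 for lonp-1(cmh24) and 15869, 15851 and 14837 for the double mutant. The level of the double mutant overlapped with that of lonp-1(cmh24), and the effect of mrps-38(P210L) was -1.82 in the wildtype background and -0.15, not called, in the lonp-1(cmh24) background. Its interaction was 1.67 ± 0.18. Within the germline, glh-1 (1.35 ± 0.06), a helicase of the P granules, was lowest in mrps-38(P210L) and highest in the double mutant. The same held for gld-1 (1.67 ± 0.13), a translational repressor that acts in meiotic entry, and for lab-1 (2.85 ± 0.23), a protein of meiotic chromosomes. lab-1 had the highest value of the list.

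Cuticle collagens departed on both sides, 58 of 164 above the sum (35.4%) and 89 below (54.3%), with a median of -0.58 and a range of -7.96 to 8.82. The share above was near the 34.4% of all tested genes, and the share below exceeded their 31.6%. Worms make a new cuticle at each molt with stage-specific collagens. col-19 (WBGene00000608, chromosome X, 421707 to 422691), the collagen of the adult cuticle, had counts of 2914, 5556 and 3869 for wildtype, 5.84, 8.26 and 191 for mrps-38(P210L), 23544, 26624 and 27059 for lonp-1(cmh24) and 54969, 56189 and 55229 for the double mutant. It was nearly absent from 2 of the mrps-38(P210L) libraries, and the double mutant was higher than lonp-1(cmh24) in all libraries. The interaction was 8.54 ± 1.54 (adjusted p = 0.00115), and 10.07 without replicate 3 of mrps-38(P210L), where a count of 191 was read. col-81 (8.82 ± 1.49), col-181 (8.80 ± 1.54), col-178 (8.18 ± 1.27) and col-124 (6.72 ± 0.71) had the same order of the groups, with values of 10.28, 10.34, 9.42 and 7.39 without that library. col-19, col-124, col-41 below and msp-33 each lie wholly within a gene on the opposite strand, and the strand setting of the counting is not given, so their reads may include those of the partner.

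Another set of collagens had its highest level in lonp-1(cmh24) alone and was below the sum. col-36 was read at 41.7, 19 and 31.5 for wildtype, 111, 106 and 92.8 for mrps-38(P210L), 9448, 3605 and 4925 for lonp-1(cmh24) and 102, 217 and 94.4 for the double mutant. All 3 lonp-1(cmh24) libraries were above every other library, and the double mutant was near the level of mrps-38(P210L), so that the interaction was -7.20 ± 0.61. col-158 (-7.96 ± 0.50), col-85 (-7.77 ± 1.03), col-2 (-5.88 ± 0.85), col-51 (-5.77 ± 1.099), col-44 (-5.57 ± 0.90) and col-37 (-5.43 ± 0.96) were also highest in lonp-1(cmh24). In all of them replicate 1 of lonp-1(cmh24) was the highest library, as in col-2, with a count of 7873 against 1333 and 2636. col-2, col-37, col-44 and col-51 had almost no reads in wildtype and mrps-38(P210L), and their calls were lost with edgeR, at adjusted p of 0.0589, 0.708, 0.174 and 0.515. col-41 (-6.46 ± 0.43) had another order of the groups, with a mean count of 30039 with mrps-38(P210L) alone, 9857 in wildtype, 4052 with lonp-1(cmh24) alone and 151 with both. dpy-13 (-1.19 ± 0.09), a collagen of body shape, was lowest in the double mutant.

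Molting and apical matrix genes were mostly below the sum, 86 of 116 against 11 above, with a median of -1.19. Several ground-like genes, distant relatives of hedgehog secreted by epithelia, peaked in lonp-1(cmh24), among them grl-9 (-5.22 ± 0.81), grl-17 (-4.50 ± 0.41) and grl-20 (-4.90 ± 0.82), whose call was lost with edgeR (adjusted p = 0.191). cut-2 (-2.16 ± 0.15), a cuticlin, was highest in mrps-38(P210L), at a mean of 33107, and lowest in the double mutant, at 2353. nas-3 (-6.85 ± 0.56), an astacin metalloprotease, was likewise highest in mrps-38(P210L) and lowest in the double mutant. tba-8 (-8.01 ± 0.40), an alpha tubulin, was read at 128, 53.2 and 78.8 for wildtype, 692, 689.9 and 660.3 for mrps-38(P210L), 91.9, 86.4 and 81.7 for lonp-1(cmh24) and 2.86, 0.97 and 1.93 for the double mutant. It was above all other libraries in mrps-38(P210L) and nearly absent from the double mutant.

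The heterochronic genes, which set the timing of larval fates, were called below the sum in 15 of 19 cases, with a median of -1.11, and 1 was called above, lep-2 (0.28 ± 0.11), named after the values were seen, whose call was lost without any 1 of 9 of the libraries and with TMM factors, edgeR, DESeq2 and the block. lin-41 (WBGene00003026, chromosome I, 9334800 to 9342496), a target of the let-7 microRNA whose product delays adult fates, had counts of 1058, 634 and 826 for wildtype, 5624, 5836 and 5203 for mrps-38(P210L), 2668, 2559 and 2670.4 for lonp-1(cmh24) and 2691, 2781 and 2629.7 for the double mutant. Wildtype was lowest and mrps-38(P210L) highest, and the 2 genotypes with lonp-1(cmh24) overlapped. The sum would give 17768, 6.58-fold above the observed mean, for an interaction of -2.72 ± 0.20 (adjusted p = 4.38e-07). daf-12 (WBGene00000908, chromosome X, 10635908 to 10666875), the steroid hormone receptor of developmental timing, was read at 1365, 1192 and 1198 for wildtype, 4539, 4768 and 4378 for mrps-38(P210L), 1405, 1146 and 1149 for lonp-1(cmh24) and 811, 843 and 774 for the double mutant. Only mrps-38(P210L) stood high, and the double mutant was below wildtype in all libraries. lin-42 (-2.33 ± 0.13), the worm homologue of period, and nhr-85 (-2.74 ± 0.13), a homologue of Rev-Erb, both factors of the molting cycle, were lowest in the double mutant. lep-5 (-0.40 ± 0.09), a long noncoding RNA of the same pathway, departed less.

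**Figure D2:**
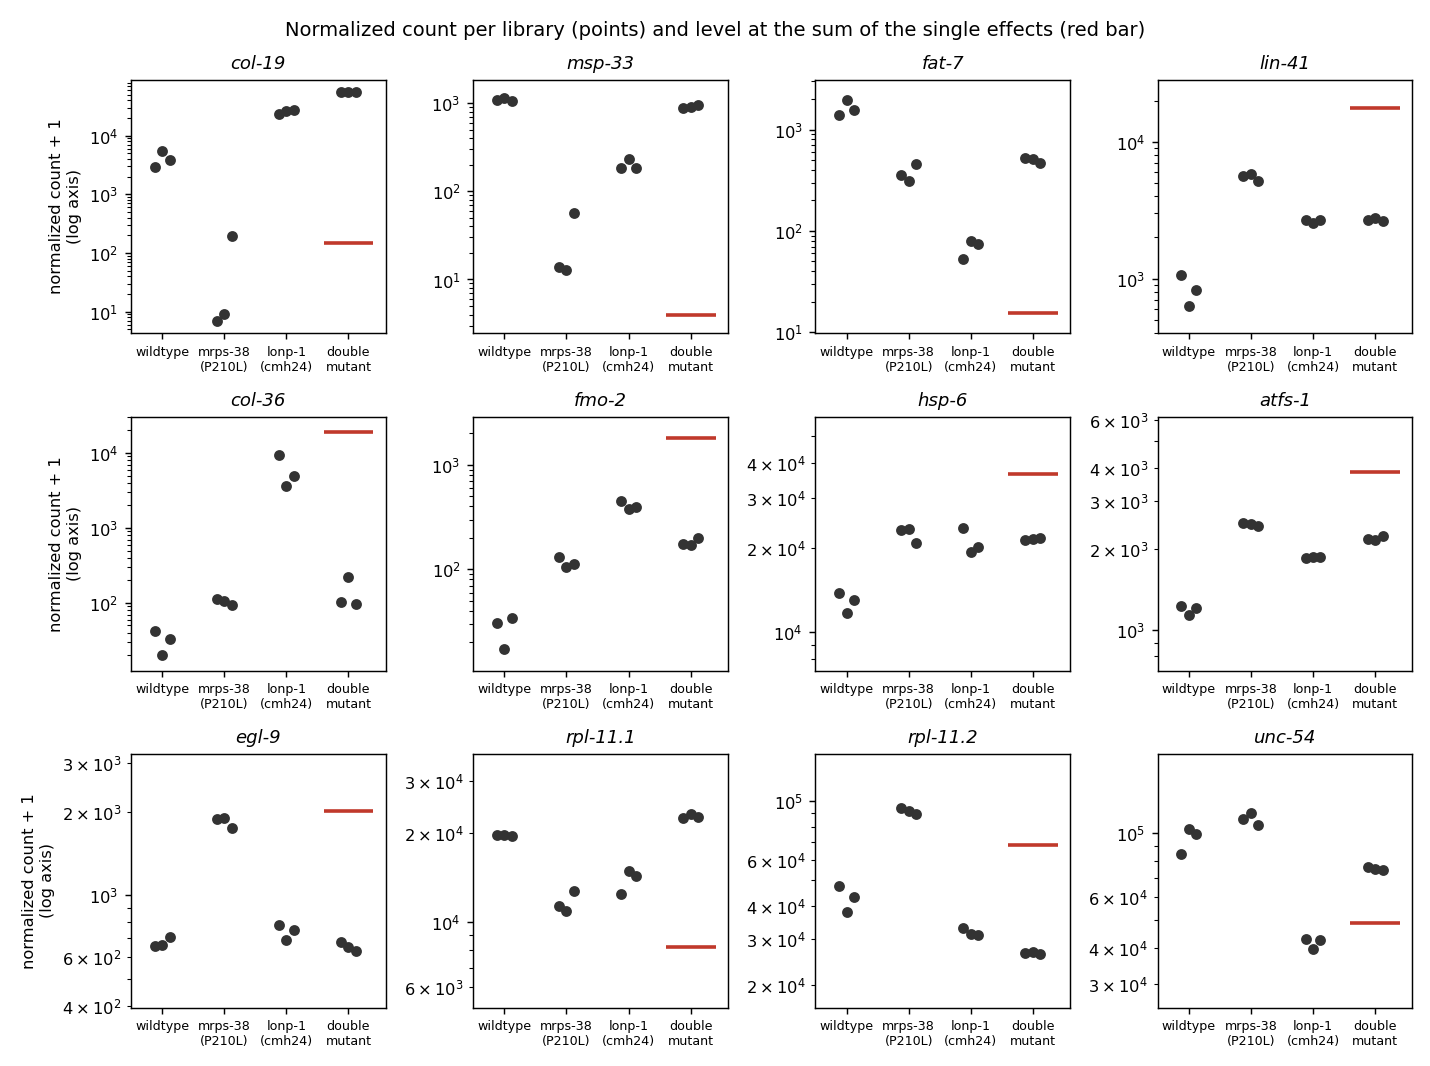
Normalized count + 1 of 12 genes on log axes, 1 point per library and 3 libraries per genotype, with a red bar at the level the double mutant would have at the sum of the single effects. In col-19, msp-33, fat-7, rpl-11.1 and unc-54 the double mutant libraries lie above the bar, and in the other 7 genes below it.

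All 12 mRNAs of the mitochondrial genome rose with lonp-1(cmh24) in the wildtype background, and in the mrps-38(P210L) background ndfl-4, nduo-3 and nduo-6 did not pass the test for a lonp-1 effect. The median effect of lonp-1(cmh24) on the 12 mRNAs was 1.76 in the wildtype background and 1.33 in the mrps-38(P210L) background, and 5 of the 12 were called below the sum, none above. Beside the background of 31.6% this is 41.7%. With FPKM and with scaling to total reads the count was 4, a share nearer to that background. The count was 8 with TMM factors and 9 with edgeR, which moved the median of all genes by -0.129 and -0.131. It was 7 without replicate 3 of mrps-38(P210L). The 5 called mRNAs encode subunits of complex I, ndfl-4 (-1.37 ± 0.33), nduo-6 (-1.31 ± 0.40), nduo-5 (-0.81 ± 0.13) and nduo-4 (-0.49 ± 0.11), and of ATP synthase, atp-6 (-0.39 ± 0.15). The call of atp-6, with an adjusted p of 0.0387, was lost with FPKM, where it was 0.0871, and without any 1 of 9 libraries.

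For nduo-5 (WBGene00010967, chromosome MtDNA, 11691 to 13272), on the mitochondrial genome, the counts were 7961, 6433 and 6548 for wildtype, 10312, 8974 and 9036 for mrps-38(P210L), 25954, 30489 and 29358 for lonp-1(cmh24) and 20575, 22096 and 23433 for the double mutant. Both genotypes with lonp-1(cmh24) lay above both without it in all libraries, and the double mutant lay 1.76-fold below the 38691 of the sum (adjusted p = 0.000102). The 3 mRNAs of complex IV were not called, with interactions of 0.11 ± 0.13 for ctc-1, 0.25 ± 0.18 for ctc-2 and 0.16 ± 0.13 for ctc-3. Nor were ctb-1 (-0.25 ± 0.12), the cytochrome b mRNA, nduo-1 (-0.31 ± 0.13), nduo-2 (-0.93 ± 0.45) and nduo-3 (-0.65 ± 0.31), and the last 4 passed the threshold with edgeR, at adjusted p of 0.0198, 0.0161, 0.00783 and 0.0121. Without replicate 3 of mrps-38(P210L) nduo-2 and nduo-3 were called, at -1.37 and -0.99 (adjusted p = 6.29e-05 and 0.000119). nduo-1 was called without replicate 1 of wildtype or replicate 2 of mrps-38(P210L), and ctb-1 without replicate 1 of wildtype or of lonp-1(cmh24). Both rRNAs of the mitochondrial ribosome were called below the sum. MTCE.33 had counts of 125, 91.2 and 87.7 for wildtype, 146, 136 and 165 for mrps-38(P210L), 2820.5, 4021 and 3705 for lonp-1(cmh24) and 2096, 2105 and 2339 for the double mutant. It was raised in both genotypes with lonp-1(cmh24), with lower values in the double mutant, and its interaction of -1.24 ± 0.21 (adjusted p = 0.000255) compares with -0.57 ± 0.17 for MTCE.7 (adjusted p = 0.00886).

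**Figure D3:**
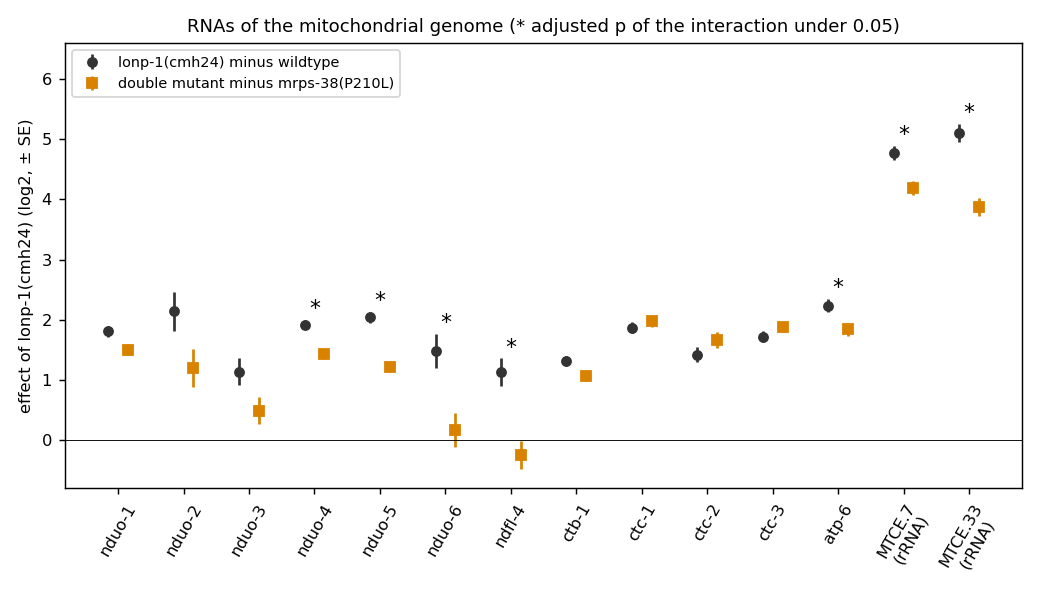
Effect of lonp-1(cmh24) on the 12 mRNAs and 2 rRNAs of the mitochondrial genome (y axis, log2, limma estimate ± SE, n = 3 libraries per group), in the wildtype background (circles) and in the mrps-38(P210L) background (squares). Asterisks mark the 7 RNAs with an adjusted p of the interaction under 0.05, all with the square below the circle.

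Mitochondrial stress genes were called below the sum in 15 of 31 cases and above it in 6, with a median of -0.17. hsp-6 (WBGene00002010, chromosome V, 4824124 to 4826760), the mitochondrial HSP70 that serves as the usual reporter of the mitochondrial unfolded protein response, had counts of 13788, 11676 and 13022 for wildtype, 23215, 23278 and 20799.8 for mrps-38(P210L), 23579, 19267 and 20132 for lonp-1(cmh24) and 21261, 21478 and 21650.0 for the double mutant. Each mutation raised it, and the ranges of the 3 mutant genotypes overlapped. Neither mutation had a called effect in worms that carried the other. The sum of the single effects would give 36603, 1.71-fold more than the observed mean, and the interaction was -0.77 ± 0.11 (adjusted p = 5.55e-05). For hsp-60 (WBGene00002025, chromosome III, 1619742 to 1625803), the chaperonin of the matrix, the counts were 22112, 19224 and 20524 for wildtype, 33879, 30921 and 27498 for mrps-38(P210L), 16234, 14777 and 15250.2 for lonp-1(cmh24) and 14047, 14012 and 13548 for the double mutant. It was highest in mrps-38(P210L) and lower than wildtype in all libraries with lonp-1(cmh24), and its interaction was -0.73 ± 0.11 (adjusted p = 4.91e-05).

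atfs-1 (WBGene00013878, chromosome V, 14193663 to 14197700), the transcription factor of the response, was read at 1229, 1134 and 1212 for wildtype, 2500.2, 2481 and 2428 for mrps-38(P210L), 1847, 1859.7 and 1864 for lonp-1(cmh24) and 2179, 2154 and 2234 for the double mutant. The double mutant lay between the single mutants with no overlap, 1.76-fold below the sum, for an interaction of -0.81 ± 0.06 (adjusted p = 1.77e-07). fmo-2, a flavin monooxygenase induced by several mitochondrial and hypoxic stresses, had counts of 29.8, 16.153 and 33.5 for wildtype, 131, 104.96 and 113 for mrps-38(P210L), 454, 377 and 391 for lonp-1(cmh24) and 175, 172 and 197 for the double mutant. Each mutation raised it, lonp-1(cmh24) more, and the double mutant lay below lonp-1(cmh24), 9.92-fold under the sum (interaction -3.31 ± 0.30, adjusted p = 7.4e-07). sod-3 (-2.57 ± 0.26), the inducible matrix superoxide dismutase, and jmjd-3.1 (-1.22 ± 0.08), a histone demethylase linked to the response, were also below the sum. The 6 members called above it were gst-4 (1.21 ± 0.09), a glutathione transferase, clpp-1 (0.61 ± 0.09), the ClpP protease of the matrix, hmg-5 (0.59 ± 0.14), the packaging factor of mitochondrial DNA, met-2 (0.47 ± 0.08), jmjd-1.2 (0.46 ± 0.08) and ttm-5 (0.38 ± 0.14). The last 5 of these were named after the values were seen, gst-4 overlaps another gene on the same strand over most of its length, and the call of ttm-5 was lost with edgeR (adjusted p = 0.148), with TMM factors (0.129) and without any 1 of 9 of the libraries.

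Genes of mitochondrial dynamics and import were more often below the sum than above it, against 31.6% below and 34.4% above among all tested genes. Of 28 genes of mitochondrial dynamics and mitophagy, 18 were called below and 7 above (4 above with TMM factors). dct-1 (-2.12 ± 0.12), the mitophagy receptor related to BNIP3, and lgg-2 (-1.22 ± 0.08) and lgg-1 (-0.66 ± 0.07), the Atg8 proteins of autophagosomes, were raised by each single mutation, and none was highest in the double mutant. Of 13 import genes, 7 were below, among them timm-23 (-0.93 ± 0.10), the channel of the inner membrane. Mitochondrial translation factors had shares near those of all tested genes, with 7 of 22 above and 6 below, among the latter the elongation factors tufm-1 (-0.85 ± 0.08), gfm-1 (-0.80 ± 0.07) and tsfm-1 (-0.46 ± 0.07). The mitoribosomal proteins were mostly not called. Of 42 proteins of the large subunit 15 were called below and 2 above, and of 28 of the small subunit 8 below and 3 above, with medians of -0.11 and -0.08. With TMM factors no member of either subunit was called above, and 13 of the small subunit were called below. With single libraries left out, the calls above numbered 1 to 3 for the large subunit and 1 to 3 for the small subunit. mrpl-39 (-0.53 ± 0.10) and mrps-34 (-0.47 ± 0.09) were among the departures, and mrps-5 (-0.06 ± 0.06) was not called, but passed with edgeR (adjusted p = 0.0253).

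The nuclear subunits of the respiratory complexes and enzymes of central metabolism were called below the sum in 40% to 80% of cases, beside 31.6% of all genes. Calls below numbered 6 of 15 for complex I, 4 of 5 for complex II, 7 of 12 for complex III, 6 of 15 for complex IV, 10 of 17 for complex V and 19 of 29 for the TCA cycle, against 2, 1, 3, 0, 2 and 4 above. With TMM factors 10 members of complex IV were below. Median interactions lay between -0.36 and -0.11. atp-2, the beta subunit of ATP synthase, had a mean count of 109990 with mrps-38(P210L) alone, against 70702 in wildtype, 54818 with lonp-1(cmh24) alone and 63888 with both, for an interaction of -0.41 ± 0.09. icl-1, the bifunctional enzyme of the glyoxylate shunt, was read at 6007, 6346 and 6328 for wildtype, 22443, 23973 and 21284 for mrps-38(P210L), 11780.2, 8481 and 9190.3 for lonp-1(cmh24) and 9432, 9627 and 9232 for the double mutant. It was highest in mrps-38(P210L), and the double mutant overlapped with lonp-1(cmh24), with an interaction of -1.90 ± 0.13 (adjusted p = 9.13e-08). pck-1 (-1.89 ± 0.16) and pyc-1 (-0.90 ± 0.10), enzymes of gluconeogenesis, and gpd-2 (-1.08 ± 0.11), a glyceraldehyde phosphate dehydrogenase, were also below. So were fasn-1 (-1.71 ± 0.09), the fatty acid synthase, and pcca-1 (-1.22 ± 0.12) and pccb-1 (-1.15 ± 0.13), the subunits of propionyl-CoA carboxylase.

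fat-7 (WBGene00001399, chromosome V, 7151353 to 7153146), a stearoyl-CoA desaturase, went the other way. Its counts were 1399, 1941 and 1565 for wildtype, 354, 307 and 462 for mrps-38(P210L), 52.3, 79 and 73.5 for lonp-1(cmh24) and 518, 514 and 468 for the double mutant. Wildtype was highest, lonp-1(cmh24) lowest, and the double mutant was above mrps-38(P210L) in all libraries, 32.2-fold above the sum (interaction 5.01 ± 0.25, adjusted p = 1.64e-08). elo-7 (5.25 ± 0.25) and elo-8 (4.74 ± 0.25), fatty acid elongases, and acdh-8 (6.55 ± 0.72) and acdh-5 (5.28 ± 0.31), acyl-CoA dehydrogenases, were lowest in mrps-38(P210L) and above the sum, and acdh-8 was at 7.26 without replicate 3 of that genotype. These genes do not stand for their lists. Of 25 genes of fatty acid desaturation and elongation, 8 were called above (32%) and 9 below (36%). Of 39 beta-oxidation genes, 13 were called above (33.3%) and 14 below (35.9%). These shares were near the 34.4% above and 31.6% below of all tested genes. In the methionine cycle, 12 of 21 genes were called above and 7 below, with cth-2 (1.61 ± 0.08), a cystathionine gamma-lyase, above, and sams-1 (-0.49 ± 0.11), the main S-adenosylmethionine synthetase, and ahcy-1 (-0.60 ± 0.17), S-adenosylhomocysteine hydrolase, below.

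Cytosolic ribosomal proteins were called below the sum in 57 of 83 cases, with a median of -0.35 and 2 calls above, rpl-42 (6.12 ± 0.90) and rpl-11.1. The calls above numbered 5 without replicate 2 of wildtype and 4 without replicate 3 of mrps-38(P210L). rpl-11.1 and rpl-11.2 encode the same ribosomal protein. rpl-11.1 had counts of 19670.2, 19666 and 19548 for wildtype, 11297, 10880.5 and 12747 for mrps-38(P210L), 12401, 14907 and 14309 for lonp-1(cmh24) and 22450.5, 23153 and 22629 for the double mutant. It was lower in each single mutant than in wildtype and highest in the double mutant, for an interaction of 1.47 ± 0.10 (adjusted p = 6.48e-08). rpl-11.2 had counts of 47692, 38051 and 43356 for wildtype, 94352, 91864 and 89013 for mrps-38(P210L), 32839.5, 31251 and 31098 for lonp-1(cmh24) and 26548, 26755 and 26278 for the double mutant. Its highest group was mrps-38(P210L) and its lowest the double mutant, for an interaction of -1.36 ± 0.10 (adjusted p = 1.06e-07). The pair thus departed in opposite directions.

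The same split was found in other paralogs. In the 11 lists of respiration, import, mitochondrial dynamics, central metabolism, ribosome and proteasome, 30 sets of 2 or 3 paralogs with shared names (64 genes) were searched after the values were seen. In 12 sets at least 1 member was called above the sum and at least 1 below, and over all 64 genes 18 were called above and 34 below. Among all tested genes 34.4% were called above and 31.6% below. Whether 12 split sets are more than genes grouped without regard to name would give was not tested. asb-1 (1.21 ± 0.08), the b subunit of ATP synthase known from the germline, stood against asb-2 (-0.59 ± 0.12). asg-1 (0.57 ± 0.07) stood against asg-2 (-0.55 ± 0.07) for the g subunit, sdha-2 (1.40 ± 0.09) against sdha-1 (-0.66 ± 0.10) for the flavoprotein of complex II, and ucr-2.3 (1.62 ± 0.11) against ucr-2.1 (-0.91 ± 0.13) for a core protein of complex III. cyc-2.2 (5.996 ± 0.57) stood against cyc-2.1 (-0.58 ± 0.09), both cytochrome c, timm-17B.2 (2.03 ± 0.19) against timm-17B.1 (-0.73 ± 0.08) of the import channel, and immt-2 (1.93 ± 0.13) against immt-1 (-0.81 ± 0.11), the mitofilins of the cristae. rpn-6.2 (3.00 ± 0.15) and rpn-6.1 (-0.25 ± 0.07) of the proteasome, fis-1 (5.78 ± 0.57) and fis-2 (-0.82 ± 0.09) of mitochondrial fission, and pck-3 (6.16 ± 0.86) against pck-1 (-1.89 ± 0.16) had the same split. The twelfth set, the hexokinases, departed little, with hxk-2 at 0.30 and hxk-1 and hxk-3 at -0.24 and -0.27. In the other sets the member above the sum was lower in mrps-38(P210L) than in wildtype, except that asg-1 was not called, and the member below was higher there. The effect of mrps-38(P210L) on hxk-2 was 0.06 and not called. cyc-2.2 lies wholly within a gene on the opposite strand. Without replicate 3 of mrps-38(P210L) the values of pck-3, fis-1 and the unpaired rpl-42 were 7.05, 6.37 and 6.88. The germline list had a median effect of mrps-38(P210L) of -0.92 in the wildtype background, and its part in the split was not tested.

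**Figure D4:**
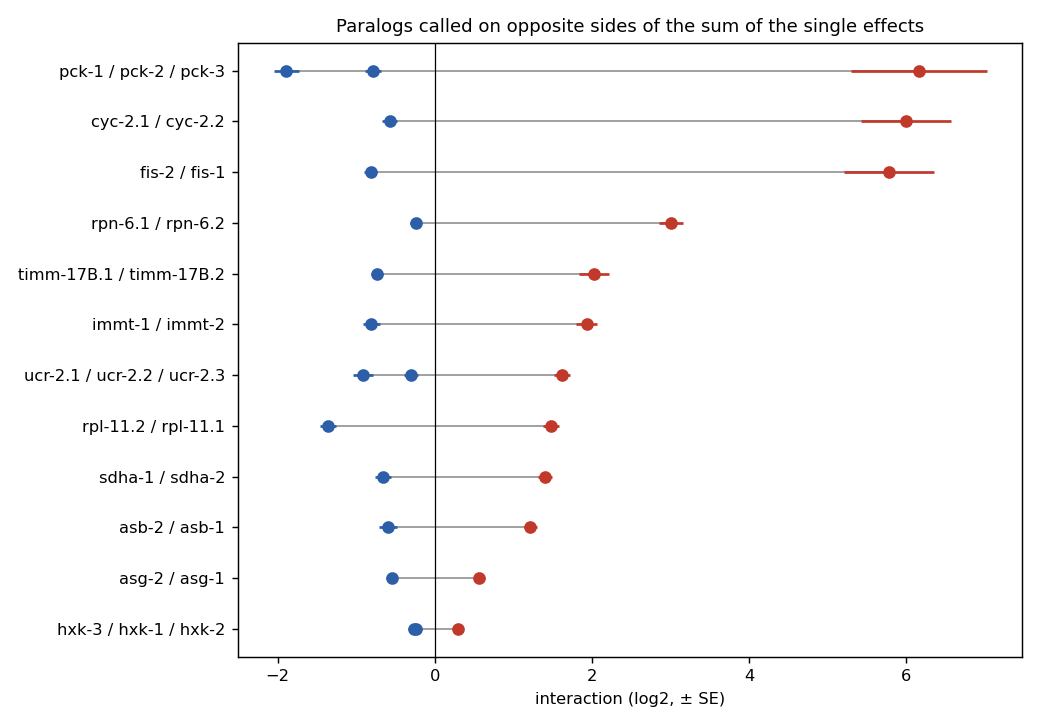
Interaction (x axis, log2, limma estimate ± SE, n = 3 libraries per group) of the 12 sets of paralogs with members called on both sides of the sum of the single effects, 1 row per set. Red points are called above the sum and blue points below it, and the sets range from hxk, with all members within 0.30 of 0, to pck, with a span from -1.89 to 6.16.

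Hypoxia and sulfide response genes were called below the sum in 12 of 15 cases (80%) and above it in none, with a median of -0.89. Among all tested genes 31.6% were called below and 34.4% above. egl-9 (WBGene00001178, chromosome V, 10468517 to 10476915), the prolyl hydroxylase that marks HIF-1 for degradation and is itself a HIF-1 target, was read at 658, 661 and 707 for wildtype, 1883, 1901 and 1749 for mrps-38(P210L), 782, 689 and 749.8 for lonp-1(cmh24) and 676, 651 and 629 for the double mutant. Only mrps-38(P210L) was high, and the double mutant overlapped with wildtype, 3.1-fold below the sum (interaction -1.63 ± 0.09, adjusted p = 8.43e-09). sqrd-1 (-2.46 ± 0.30), the mitochondrial sulfide quinone oxidoreductase, and nhr-57 (-1.39 ± 0.21), a standard HIF-1 reporter gene, were also highest in mrps-38(P210L). hif-1 (-0.46 ± 0.09) itself departed less.

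All 5 flavin monooxygenases were called below the sum, with fmo-4 (-2.83 ± 0.11) and fmo-1 (-1.49 ± 0.15) next to fmo-2. Of 61 cytochromes P450, 27 were below (44.3%) and 17 above (27.9%), beside 31.6% and 34.4% of all tested genes. Among those below were cyp-13A2 (-2.71 ± 0.16) and cyp-37A1 (-1.91 ± 0.15), both highest in mrps-38(P210L). Antioxidant enzymes were below in 13 of 21 cases (61.9%) and above in 3 (14.3%). Among those below were ctl-1 (-1.70 ± 0.27), a catalase, and prdx-2 (-0.64 ± 0.08), a peroxiredoxin. Genes of endoplasmic reticulum stress were called above in 6 of 23 cases and below in 9, and those of the cytosolic heat shock response in 5 of 21 and 6, shares near or under those of all tested genes but for 39.1% below in the former, and with TMM factors 1 of the former was above. hsp-4 (0.96 ± 0.10), the BiP reporter of endoplasmic reticulum stress, and hsp-70 (1.48 ± 0.13) and hsp-16.41 (0.84 ± 0.14), heat shock proteins, were above the sum. dnj-27 (-1.45 ± 0.13), a J-domain protein of the endoplasmic reticulum, and atf-6 (-1.31 ± 0.12), a transcription factor of its stress response, were below. hsp-70 lies wholly within a gene on the opposite strand.

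Tissue markers departed in a different way for muscle and nerve. Of 40 body wall muscle genes, 27 were called above the sum and 3 below, with a median of 0.41. unc-54 (WBGene00006789, chromosome I, 14855901 to 14863482), the main myosin heavy chain of body wall muscle, had counts of 84789.7, 103080 and 98881 for wildtype, 112024, 117134 and 106187 for mrps-38(P210L), 42779, 39678 and 42419 for lonp-1(cmh24) and 75979, 74756 and 74602 for the double mutant. It was lowest in lonp-1(cmh24), and the double mutant lay between lonp-1(cmh24) and the genotypes without that mutation with no overlap, 1.54-fold above the sum (interaction 0.62 ± 0.10, adjusted p = 0.000112). act-4 (0.48 ± 0.08), an actin, and unc-27 (0.84 ± 0.08), a troponin I, were also lowest in lonp-1(cmh24), as was cpn-3 (1.23 ± 0.10), a calponin, which was highest in the double mutant. The 3 below were hlh-1 (-0.56 ± 0.17), the MyoD homologue, unc-52 (-0.47 ± 0.09), perlecan, and unc-45 (-0.30 ± 0.09), a myosin chaperone, named after the values were seen. The pharyngeal myosins myo-1 (0.54 ± 0.14) and myo-2 (0.48 ± 0.12) were above the sum, whereas the pharynx list as a whole was even, with 8 of 23 above (34.8%) and 7 below (30.4%). Among all tested genes the shares were 34.4% and 31.6%.

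Neuronal genes were called below the sum in 37 of 46 cases and neuropeptide and insulin genes in 85 of 110, with medians of -0.73 and -1.05. eat-4 (WBGene00001135, chromosome III, 9136887 to 9141827), the vesicular glutamate transporter, was read at 109, 125 and 112.34 for wildtype, 307, 317 and 277 for mrps-38(P210L), 114.64, 133 and 93.3 for lonp-1(cmh24) and 56.3, 83.4 and 79 for the double mutant. mrps-38(P210L) was highest and the double mutant lowest, each apart from all other libraries, for an interaction of -2.01 ± 0.23 (adjusted p = 5.24e-06). egl-3 (-1.01 ± 0.07) and egl-21 (-1.06 ± 0.09), enzymes that process neuropeptides, cho-1 (-1.73 ± 0.14), the choline transporter, and mec-4 (-2.02 ± 0.33), the touch channel, had the same order. The 2 neuronal genes above the sum were tbh-1 (3.30 ± 0.46), tyramine beta-hydroxylase, and bas-1 (0.56 ± 0.12), an aromatic amino acid decarboxylase named after the values were seen. tbh-1 was at a mean of 24.2 in mrps-38(P210L) and 2714 in the double mutant. ins-35 (-4.79 ± 0.40) and ins-33 (-2.82 ± 0.12), insulin-like peptides, were among the lowest values, and nlp-4 (4.79 ± 0.41) and ins-37 (3.69 ± 0.33) were above the sum. Intestinal markers, 26 genes, were mostly not called (20), with 3 on each side. TMM factors gave 7 called below. Leaving out replicate 1 of wildtype or replicate 2 of lonp-1(cmh24) gave 6 or 8 called below, and leaving out replicate 2 of wildtype or replicate 1 of lonp-1(cmh24) gave 6 called above.

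**Figure D5:**
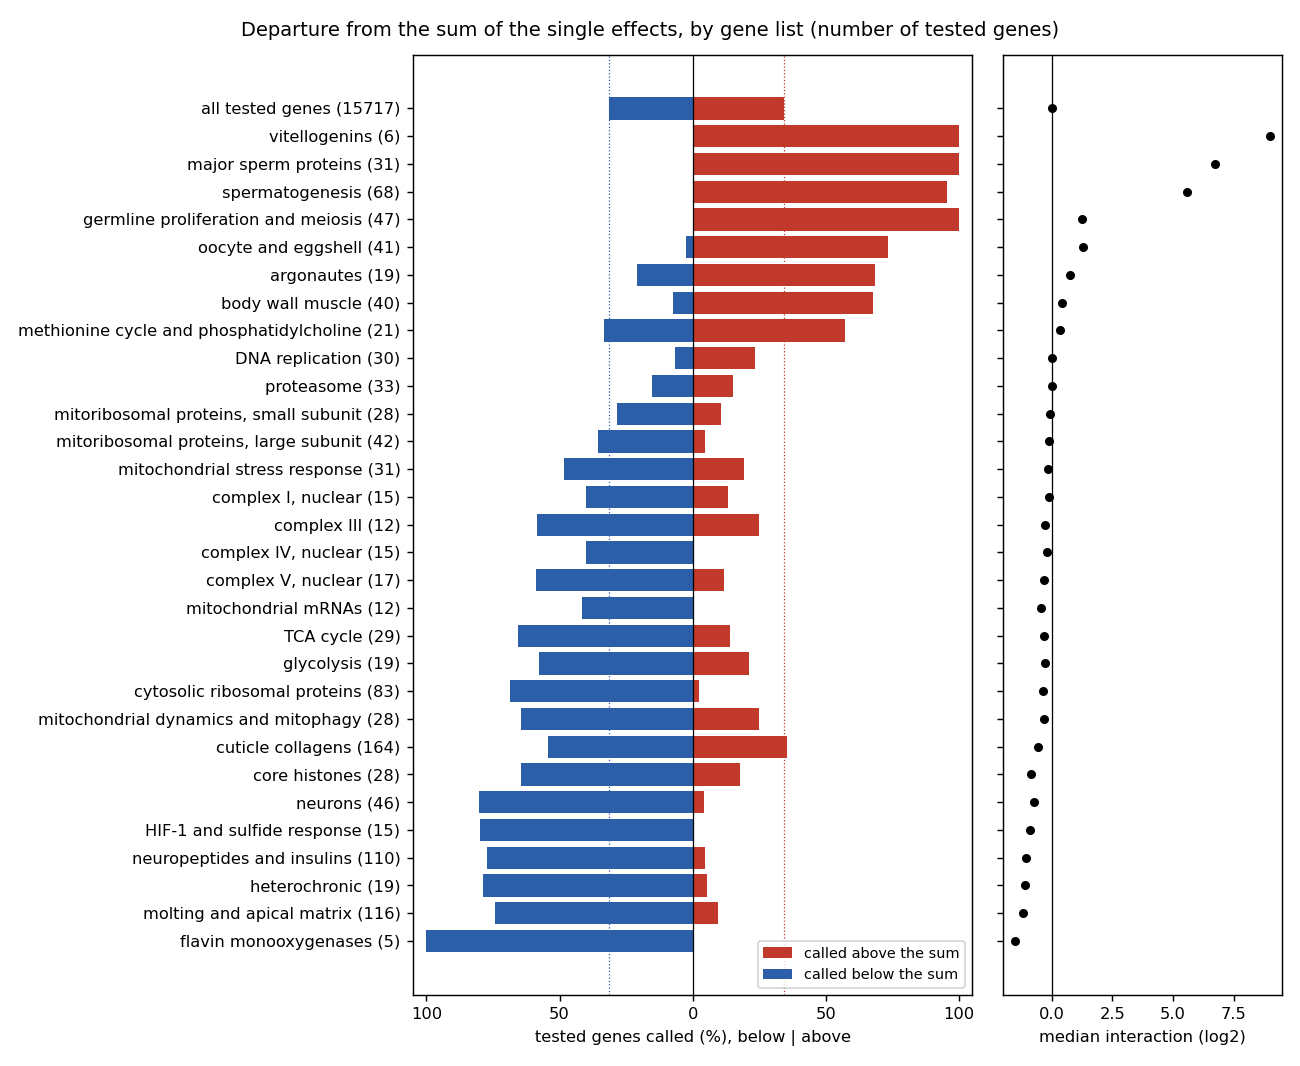
Share of tested genes called above (red) and below (blue) the sum of the single effects (left panel, %) and median interaction (right panel, log2) for all tested genes and 30 gene lists, with the number of tested genes in brackets. Dotted lines mark the shares over all tested genes, 34.4% and 31.6%, and the lists run from yolk and sperm genes, with up to 100% above, to molting, timing and neuronal genes, mostly below.

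Of 30 DNA replication genes, 21 were not called. A share of 23.3% (7 genes) was above and 6.67% (2 genes) below, both shares under the 34.4% and 31.6% of all tested genes. The 2 below were subunits of ribonucleotide reductase, rnr-1 (-0.53 ± 0.08) and rnr-2 (-1.08 ± 0.08), and with TMM factors the counts were 3 and 7. Without replicate 1 of lonp-1(cmh24) 7 were called below. Core histones were below the sum in 18 of 28 cases, with 5 above. Among the latter his-70 (5.51 ± 0.78), a histone H3 variant, was lowest in mrps-38(P210L), and its value was 6.32 without replicate 3 of that genotype. his-24 (-2.66 ± 0.11), a linker histone, was lowest in the double mutant. Proteasome genes stayed near the sum, with 5 of 33 called on each side and a median of 0.01, and TMM factors gave 2 above and 13 below, and the calls below fell to 2 without replicate 2 of mrps-38(P210L) or replicate 3 of lonp-1(cmh24).

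Genes on the X chromosome were called below the sum more often than genes on any autosome. Of 2248 tested X-linked genes, 48.4% were called below and 19% above, with a median of -0.41. Chromosomes I and IV had 42.2% and 41.6% above and 24.6% and 26.2% below, and chromosomes II, III and V lay between. None of the 31 major sperm protein genes, the 68 spermatogenesis genes and the 47 germline genes is on X, against 10 of 46 neuronal and 30 of 110 neuropeptide genes, and the part of these lists in the shares was not tested. Pseudogenes were called above the sum in 56% of 561 cases and below in 13.9%, with a median of 0.89.

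For some genes a group had almost no reads, and the size of the interaction then depends on the added 1. Of the called genes, 605 had a group with a mean under 3 reads per library, 472 of them genes above the sum that were this low in mrps-38(P210L). R04F11.3 (WBGene00011016, chromosome V, 12314919 to 12317180) had no reads in any mrps-38(P210L) library. Its counts were 956, 1043 and 921 for wildtype, 0, 0 and 0 for mrps-38(P210L), 1086, 1408 and 1393 for lonp-1(cmh24) and 1580.2, 1613 and 1605 for the double mutant. Against a floor of 3 reads per library, wildtype was at least 278-fold higher and the double mutant at least 456-fold higher than mrps-38(P210L). The double mutant libraries were highest, with no overlap with any other group. For C09E7.8 no reads were found in lonp-1(cmh24) and the double mutant, against 306, 405 and 374 in wildtype and 113, 160.4 and 172 in mrps-38(P210L), and its fitted interaction of 1.29 ± 0.33 depends on the added 1, with an adjusted p of 1 with edgeR and 0.449 with DESeq2.

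A few genes were high in wildtype and low in all 3 mutant genotypes. BE0003N10.6 (WBGene00255598, chromosome III, 1056230 to 1060061) was read at 712, 1157 and 836 for wildtype, 11.7, 7.08 and 16.245 for mrps-38(P210L), 9.27, 6.58 and 16.514 for lonp-1(cmh24) and 14.3, 19.4 and 10.596 for the double mutant. The 3 mutant genotypes overlapped, and the interaction was 6.66 ± 0.49. D1014.6 had the same pattern, with 162, 333 and 224 in wildtype and at most 2.53 in any other library. At the sum of the single effects the double mutant would have a count of -0.85 for BE0003N10.6 and -0.97 for D1014.6. No count can be that low, so any level of the double mutant lies above the sum in these genes. nhr-234 (6.61 ± 0.41), a nuclear receptor, was at a mean of 183 in wildtype and 32.1 or less in the others.

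Genes that combined close to the sum were also found. For 2798 of the 15717 genes the 95% confidence interval of the interaction lay within 0.5 of 0. The interval used the 8 residual degrees of freedom and is wider than the empirical Bayes test of the same fit implies. The count of 2798 is therefore, if anything, too low. In 7 of these each single mutation had a called effect of at least 0.8. Among them nep-1, a neprilysin peptidase, had counts of 3335, 5289 and 4276 for wildtype, 2471, 2293 and 2414 for mrps-38(P210L), 1513, 1493 and 1463 for lonp-1(cmh24) and 909, 909.6 and 865 for the double mutant. Wildtype was highest, followed by mrps-38(P210L) and lonp-1(cmh24), and the double mutant was lowest, with no overlap, and the interaction was 0.09 ± 0.17 (95% interval -0.31 to 0.48). Without replicate 1 of wildtype it was 0.26 and was called (adjusted p = 0.0456). acp-7 was raised by each mutation, by 0.85 and 1.33, and had an interaction of 0.04 ± 0.17. C02F5.14 (0.02 ± 0.16), C05E7.1 (0.03 ± 0.20), kvs-5 (0.19 ± 0.11) and ncx-2 (-0.10 ± 0.07) were not called either, although ncx-2 passed with edgeR (adjusted p = 0.0145) and kvs-5 without replicate 1 of wildtype (adjusted p = 0.0109). lon-3 (-0.24 ± 0.09), a cuticle collagen of body size regulation, was called with an adjusted p of 0.0276, a call that was lost with FPKM (adjusted p = 0.1), with scaling to total reads and without any 1 of 6 of the libraries, beside single effects of -1.47 and -1.38. lon-3 lies wholly within a gene on the opposite strand. These 7 genes were picked after the values were seen.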

How the data were processed

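The libraries were sequenced as stranded paired-end reads, per the labels' protocols. STAR, featureCounts, DESeq2 and the build WBcel235 are named in the submitters' processing notes. Tool versions and the strand setting of the counting are not given in the sources used here. Deposited by the authors were normalized counts, a signal in which the reads of each library are divided by its size factor (0.848 to 1.22), and FPKM. Positions are those of the deposited table, and 99.7% of 15713 matched genes have the same position in Ensembl release 115 of WBcel235. All 12 columns were matched to a sample. In the deposited counts all values (100%) were whole multiples of 1 step per library within 0.01, so whole reads were recovered for the count tests.

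From log2 of the authors' normalized count + 1, limma 3.58.1 (R 4.3.3, statmod 1.5.0, trend and robust empirical Bayes) fitted a mean per genotype to all 12 libraries, for genes with a mean of at least 10. The interaction and 5 further contrasts came from this fit, two-sided, with Benjamini-Hochberg adjustment at 0.05. Count fits used edgeR 4.0.16 and DESeq2 1.42.0. No 2 libraries agreed within sampling noise (chi-square per degree of freedom of at least 1.67). p-values measure the spread between libraries labelled as biological replicates. Floors on reads cover counting error only.

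The comparison, the 55 gene lists (28 entries had no match in the table) and the naming rule were chosen with earlier results of these data known. Among genes that were called and averaged 50 or more, the rule picked the 15 largest interactions per direction and the 4 largest per pattern. From each list it picked up to 4 called members with the largest values, whatever their mean count. It also picked the 2 most abundant members per list, called or not. lonp-1, atfs-1, hsp-60, hsp-6 and the RNAs of the mitochondrial genome were always picked. Not all genes picked by the rule are described here. Paralogs and genes stated so were named after the values were seen. A search for promoter motifs was planned and not run, and no promoter sequence was used here. The limma fit was tested on simulated data with known changes.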

Additional observations from a re-analysis of the deposited data

Results flagged for a closer look

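In 1256 genes the effect of lonp-1(cmh24) passed the test in each background with opposite signs, and the difference between the backgrounds passed the interaction test. Of these, 684 lay above the sum of the single effects and 572 below. The 4 with the largest values are given here. msp-33 fell by 2.47 on the log2 scale with lonp-1(cmh24) in the wildtype background and rose by 5.41 in the mrps-38(P210L) background, a difference of 7.88. C25D7.1 fell by 1.02 and rose by 6.02, a difference of 7.04. F58E6.4 rose by 1.81 and fell by 7.07, a difference of -8.88, and the fitted size is sensitive to the added 1, since its mean count was 5.92 in wildtype and 0.644 in the double mutant. col-158 rose by 6.604 and fell by 1.36, a difference of -7.96.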

How the results depend on the processing

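The count of called genes was 9818 to 10469 without each library in turn, 10284 with a replicate block (5380 above, 4904 below), 10656 with TMM factors, 10569 with edgeR, 10039 with DESeq2, 10266 with FPKM and 12182 with arrayWeights, whose fit stopped short of its convergence tolerance, against 10377. Genes called in the main test and in any of these kept their direction. The choice of scaling shifted the balance. TMM factors and edgeR lowered the median of all genes by 0.129 and 0.131 and put 44.1% of calls above the sum, against 52.2%, so small interactions around 0 depend on the scaling. Replicate numbers did not pair the libraries (correlations of -0.16 to 0.12 over 18 pairs of same-numbered libraries), so the block is an alternative only. DESeq2 gave no adjusted p to 17 called genes, 3 of them vitellogenins. With no filter 11140 genes were called and with a mean of at least 50, 8853. The median interaction of the lists of mitochondrial translation factors, tRNA synthetases, proteasome, DNA replication, pharynx, amino acid stress, iron and heme, endoplasmic reticulum stress, heat shock, F-box A and immune effector genes lay near 0 and changed sign between scalings. Depth limits the 605 called genes with a group under 3 reads per library.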

Other observations

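Large gene families outside the comparisons above were also counted, beside 34.4% called above and 31.6% below among all tested genes. Of 200 tested nuclear hormone receptors, 96 were called below and 15 above, with a median of -0.48. nhr-155 (-3.95 ± 0.26) and nhr-270 (-3.39 ± 0.34) were highest in mrps-38(P210L), as was nhr-97 (-1.50 ± 0.11). Of 52 transthyretin-related genes, 28 were called above and 9 below. ttr-14 had normalized counts of 1945, 4127 and 2784 for wildtype, 2.33, 2.36 and 53.377 for mrps-38(P210L), 2459, 2823 and 2847 for lonp-1(cmh24) and 2863, 2903 and 2851 for the double mutant. It was nearly absent from 2 of the mrps-38(P210L) libraries, and both genotypes with lonp-1(cmh24) lay within the range of wildtype, for an interaction of 8.46 ± 1.36 (9.80 without replicate 3 of mrps-38(P210L)). C-type lectins were called above in 54 of 129 cases (41.9%) and below in 38 (29.5%), with clec-153 (6.83 ± 1.16) and clec-17 (-5.70 ± 0.40) at the ends, clec-153 at 7.86 without that library. F-box A genes were above in 53 of 151 cases (35.1%) and below in 38 (25.2%), shares near or under those of all tested genes, and chemoreceptors were below in 28 of 67 and above in 9.

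Of 19 argonautes, 13 were called above the sum and 4 below. csr-1 (1.47 ± 0.08) and prg-2 (1.90 ± 0.14), argonautes of the germline, were above. The 4 below were alg-1 (-0.94 ± 0.19) and alg-2 (-1.13 ± 0.10), the argonautes of the microRNA pathway, nrde-3 (-1.05 ± 0.12), a nuclear argonaute of the soma, and ergo-1 (-0.23 ± 0.08), named after the values were seen. csr-1 overlaps a gene on the same strand over most of its length, and clec-153 and fpn-1.1 lie within genes on the opposite strand. The call of ergo-1 was lost with FPKM (adjusted p = 0.0807). Vacuolar ATPase subunits were below in 9 of 21 cases, a count that rose to 17 with TMM factors, 15 without replicate 1 of wildtype and 14 without replicate 2 of lonp-1(cmh24), and vha-18 (2.1 ± 0.14) was above. Heme genes gave both directions, with hrg-2 (-3.14 ± 0.28) and hrg-1 (-1.67 ± 0.22) below and fpn-1.1 (1.36 ± 0.17), a ferroportin, above. Among pals genes of the intracellular pathogen response, pals-27 (-2.63 ± 0.55) and pals-32 (-2.22 ± 0.43) were below and pals-37 (3.48 ± 0.45) above.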
